A study of Mus musculus with 400 samples.

Results

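Histamine, proteases, bradykinin, endothelins and angiotensin reach sensory nerve endings from mast cells, plasma and blood vessels, and each acts through G protein-coupled receptors. The genes described here are 10 of these receptors: the histamine receptor genes Hrh1, Hrh2 and Hrh3, the protease-activated receptor genes F2r, F2rl1 and F2rl2, the bradykinin receptor gene Bdkrb2, the endothelin receptor genes Ednra and Ednrb, and the angiotensin receptor gene Agtr1a. They were taken by name, and all 10 were found among 24754 gene entries. Their levels were followed over single cells of the dorsal root ganglion (DRG), which holds the cell bodies of the sensory neurons of the body together with satellite glia and Schwann cells.

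The cells came from ganglia C1-C8 of 6 naive mice, 6 to 12 weeks old, labelled Nav1.8-Cre R26CAG-floxStop-tdTomato (strain label Nav1.8-Cre.Ai14). In this line a Cre recombinase under the control of the sodium channel gene Scn10a (Nav1.8) removes a stop cassette and switches on the red fluorescent protein tdTomato, so that mainly nociceptors and their lineage are marked. All mice carried the reporter and no mouse was treated, so that every comparison was made between cells of the same mice. Red cells were sorted singly, each became 1 library, and 394 libraries had a column in the tables, of which 371 with at least 500 detected genes were kept. Sequencing run 1 held the mice Blue and Red, with 34% and 34.5% of the kept cells; the smaller mice were Control (run 2, 50 cells), Control1 and Control2 (both run 3, with 19 and 23 cells) and Control6 (run 4, 25 cells).

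The depth of a kept cell, in recovered counts, was 30358 at the median and lay between 912 and 324776, and no 2 columns were identical. The 23 libraries left out held at most 382 counts each, and none of the 10 genes had a value there. Neuronal genes were found in nearly all kept cells, with Snap25 in 363, Scn10a in 364 and Prph in 365 of 371. Cells were grouped by gates on marker genes, in CPM (the count of a gene scaled to the total of its cell): Mrgprd of at least 200 (30.5% of kept cells), Mrgpra3 of at least 50 (47), Sst or Nppb of at least 100 (46), Th of at least 100 (39), Calca of at least 2000 with Tac1 of at least 1000 (86), and Nefh of at least 500 (26). Mrgprd marks non-peptidergic nociceptors, Mrgpra3 and Sst or Nppb mark itch neurons, Th marks low-threshold touch neurons, Calca and Tac1 mark peptidergic nociceptors and Nefh marks myelinated neurons. The gates are ranges of these genes and not cell types. No gate took 28 cells, 329 cells passed 1 gate, and 14 cells passed several and were counted in each.

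As background, Hrh1 couples to Gq and phospholipase C and carries histamine itch, Hrh2 couples to Gs, and Hrh3 couples to Gi and is known as a presynaptic brake on histamine and transmitter release. The protease-activated receptors carry their own ligand: a protease cuts the extracellular N terminus, and the new end folds back and activates the receptor. Thrombin cuts the product of F2r (PAR1), trypsin and mast cell tryptase cut that of F2rl1 (PAR2), and in mouse platelets the product of F2rl2 (PAR3) acts mainly as a thrombin cofactor for another family member, PAR4. Bdkrb2 encodes the constitutive bradykinin receptor B2 of inflammatory pain. Ednra and Ednrb are the receptors of the vasoconstrictor endothelins, and Agtr1a encodes the main angiotensin II receptor of the mouse, which raises blood pressure in vascular smooth muscle and kidney.

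The 3 protease-activated receptor genes differ in the stretch that becomes the ligand, which is why their coding sequence around the cut is shown. The letters are from the transcripts of GENCODE vM21 on GRCm38, 5′ to 3′ on the coding strand, 48 bases each, and capitals mark the first 6 codons after the cut, the tethered ligand.
F2r: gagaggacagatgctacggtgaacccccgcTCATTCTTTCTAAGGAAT
F2rl1: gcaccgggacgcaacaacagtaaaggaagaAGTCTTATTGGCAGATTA
F2rl2: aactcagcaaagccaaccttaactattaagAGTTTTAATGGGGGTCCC
The F2r stretch lies in exon 2 on the minus strand (chr13:95604885-95604932) and the F2rl2 stretch in exon 2 on the plus strand (chr13:95700530-95700577). That of F2rl1, on the minus strand, is split over exon 1 (chr13:95525037-95525043) and exon 2 (chr13:95514241-95514281). The 3 genes are neighbours on chromosome 13: F2rl1 and F2r are 76575 bases apart and F2r and F2rl2 78365 bases.

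The other members lie elsewhere on GRCm38: Hrh1 at chr6:114397936-114483296 (plus strand), Hrh2 at chr13:54192129-54236180 (plus), Hrh3 at chr2:180099465-180104488 (minus), Bdkrb2 at chr12:105563226-105595237 (plus), Ednra at chr8:77663031-77724464 (minus), Ednrb at chr14:103814625-103844402 (minus) and Agtr1a at chr13:30336441-30382867 (plus). The sources used here do not say whether counting used the strand. Hrh3 shares 11.1% of its exonic bases with Gm17180, Hrh2 2.44% with Gm16578 and Ednra 1.66% with 4933431K23Rik, each on the opposite strand, so the values of Hrh3, Hrh2 and Ednra are uncertain by the reads of those genes. F2rl2 (chr13:95696853-95702739) lies inside Iqgap2, which runs on the opposite strand, but shares none of its exonic bases.

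Levels are given as the mean CPM of the cells of a gate in each mouse, for mice with at least 3 such cells, and the error is the SD over mice. CPM are not corrected for transcript length, so levels of different genes are not set against each other. Differences between gated cells and the kept cells outside the gate were tested with limma on log2(mean CPM + 5), with the mouse as a block, over all genes whose mean reached 2 CPM; a difference was called where its p, adjusted by Benjamini and Hochberg, was under 0.05. The pseudocount of 5 CPM makes log2 differences of genes near 0 smaller than the ratio of their CPM. The 7 comparisons draw on the same cells, since a cell in a gate belongs to the other cells of the remaining comparisons, and they are not independent of each other.

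Over all kept cells, F2rl2 had a value in 292 of 371 cells, Agtr1a in 33.2% of them, Ednrb in 94 cells, Hrh1 in 71, F2r in 58, Hrh3 in 29, F2rl1 in 17, Ednra in 16, Hrh2 in 8 and Bdkrb2 in 2. The median cell held 2 of the 10 genes and the richest cell 5. At least 3 of them were found in 48.9% of Mrgpra3-high cells, 40.7% of Mrgprd-high cells, 32.6% of Sst/Nppb-high cells and 50% of Nefh-high cells, against 5.81% of Calca/Tac1-high cells and none of 39 Th-high cells. The median depth of these gates was 38511, 46214, 16917, 67415, 19874 and 32483 counts in that order, so cells of the Calca/Tac1 and Sst/Nppb gates were sampled less deeply.

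**Figure D1:**
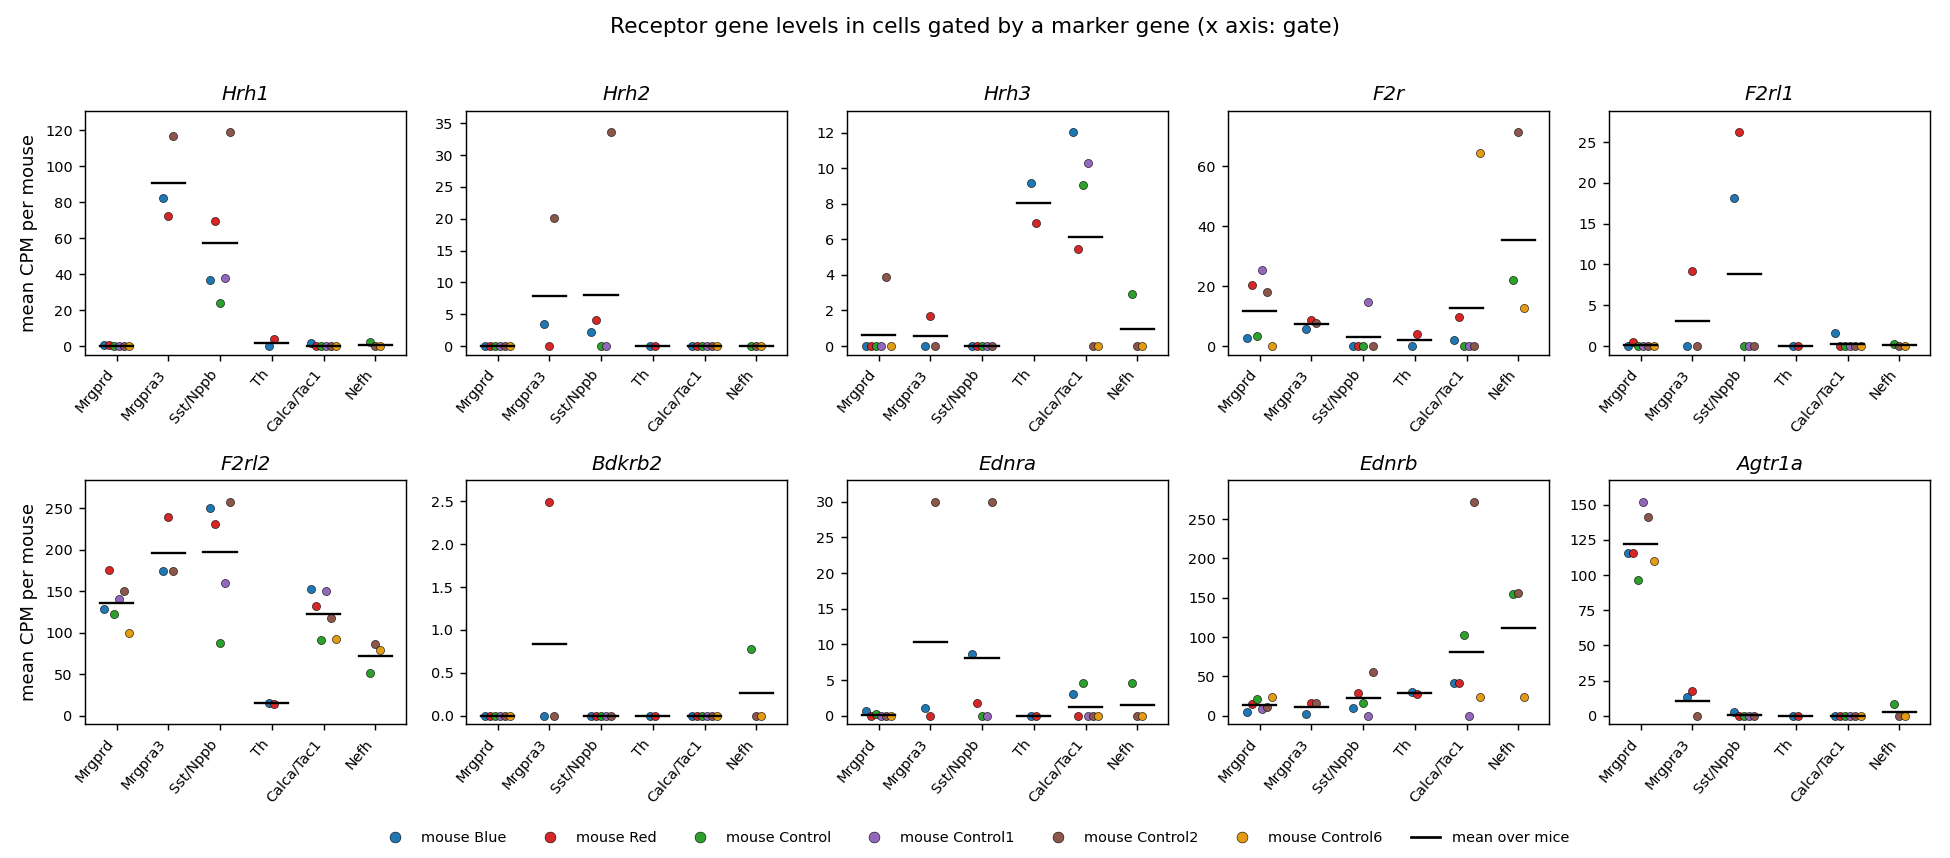
Mean CPM per mouse (y axis, linear, from 0) of the 10 receptor genes in cells of the 6 neuron gates (x axis); each point is 1 mouse with at least 3 cells in the gate and the bar is the mean over mice. Hrh1 stands high in the Mrgpra3 and Sst/Nppb gates, Agtr1a in the Mrgprd gate, and F2rl2 is low in the Th gate.

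Hrh1 was a gene of the itch gates. Its mean was 82.4 CPM in Blue, 72.4 in Red and 116.8 in Control2 for Mrgpra3-high cells, against 9.14, 11.5 and 8.86 CPM for the other cells of these mice. The groups did not overlap, and Hrh1 was higher in 3 of 3 mice (log2 difference 2.67, SE 0.30, limma adjusted p = 0.00881, n = 3 mice). In Sst/Nppb-high cells the 5 mice with enough cells had 36.6 (Blue), 69.5 (Red), 24.1 (Control), 37.7 (Control1) and 119.03 CPM (Control2), against 17.5, 14.04, 1.80, 0 and 8.53 CPM in their other cells. It was higher in 5 of 5 mice, again without overlap (log2 difference 2.25, SE 0.48, limma adjusted p = 0.00735, n = 5).

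The Mrgpra3 and Sst/Nppb gates together held 92 cells, 59 of which had Hrh1, and these 59 were 83.1% of the 71 cells with Hrh1. Hrh1 was found in 34 of 47 Mrgpra3-high cells (72.3%, exact 95% interval 57.4% to 84.4%) and in 26 of 46 Sst/Nppb-high cells (56.5%, 41.1% to 71.1%). Thinning every cell to 5000 counts gave 28.3% and 24.4% in these gates, with no Hrh1 left in any Mrgprd-high, Th-high, Calca/Tac1-high or Nefh-high cell. Intervals and limits of this kind cover counting error only.

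Where Hrh1 was present in a Mrgpra3-high cell, the median was 4 counts and 86.7 CPM, and in an Sst/Nppb-high cell 2 counts and 76.1 CPM. In the other 4 neuron gates a value meant 1 count: 1.77% of Mrgprd-high, 1 of 39 Th-high, 2 of 86 Calca/Tac1-high and 3 of 26 Nefh-high cells had one, and the means over mice were 0.177 ± 0.275, 1.89 ± 2.67, 0.29 ± 0.71 and 0.667 ± 1.16 CPM (SD, n = 6, 2, 6 and 3). Hrh1 was lower in Mrgprd-high cells in 6 of 6 mice (log2 difference -2.16, SE 0.29, limma adjusted p = 5.9e-05). Lower values also passed the test in Calca/Tac1-high cells (-1.92, SE 0.36, adjusted p = 0.0025, 6 of 6 mice) and in Th-high cells (-2.08, SE 0.37, adjusted p = 3.5e-07, 2 of 2 mice). In Nefh-high cells the difference of -1.48 (SE 0.56) did not pass (limma adjusted p = 0.116, n = 3). The other cells of these comparisons contain the Mrgpra3-high and Sst/Nppb-high ones, so that every gate with little Hrh1 lies below them. These lower values do not set the 4 gates apart from each other.

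Within run 1 the Hrh1 difference was 2.43 for the Mrgpra3 gate, 1.43 for the Sst/Nppb gate, -2.55 for the Mrgprd gate and -2.50 for the Calca/Tac1 gate, all past the threshold. Runs 2 to 4 gave 2.80 for the Sst/Nppb gate (limma adjusted p = 0.0889), -1.97 for the Mrgprd gate (0.00406) and -1.62 for the Calca/Tac1 gate (0.0958), so that the Sst/Nppb and Calca/Tac1 calls were lost there; Mrgpra3-high cells reached 3 in only 1 of these mice, and the fit could not be made. Among cells with less than 1000 CPM of the glial gene Apoe, the Sst/Nppb difference was 2.00 and no longer passed (adjusted p = 0.0665). In Th-high cells, DESeq2 on recovered counts gave an adjusted p of 0.0542. The spread of the Th comparison, with 2 mice, was taken wholly from the trend over all genes, so its p-values rest on the assumption that each gene varied as genes of its level do. Every fit of run 1 also had 2 mice, as had the leave-one-out fits of the Mrgpra3 and Nefh gates. Their p-values lean on that trend as well.

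Of Mrgpra3-high cells, 7 of 9 with at least 1000 CPM of Apoe had Hrh1, against 27 of 38 with less. edgeR and DESeq2 on recovered counts, which add no 5 CPM, gave larger differences where a side was near 0 (Hrh1 in the Mrgprd gate, -5.72 and -5.18). Across the 25 mouse-by-gate samples, the genes most like Hrh1 in log2(CPM + 5) were P2rx2, an ATP-gated channel gene (Pearson's r 0.92), Lgi1, which encodes a secreted synaptic protein (0.89), and the interferon-induced gene Ifit3 (0.86). These samples share mice, and cells that pass several gates; genes whose mean reached 10 CPM were searched. P2rx2 averaged 22.2 CPM in Mrgpra3-high and 57.04 CPM in Sst/Nppb-high cells, against at most 1.57 CPM in the other gates.

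**Figure D2:**
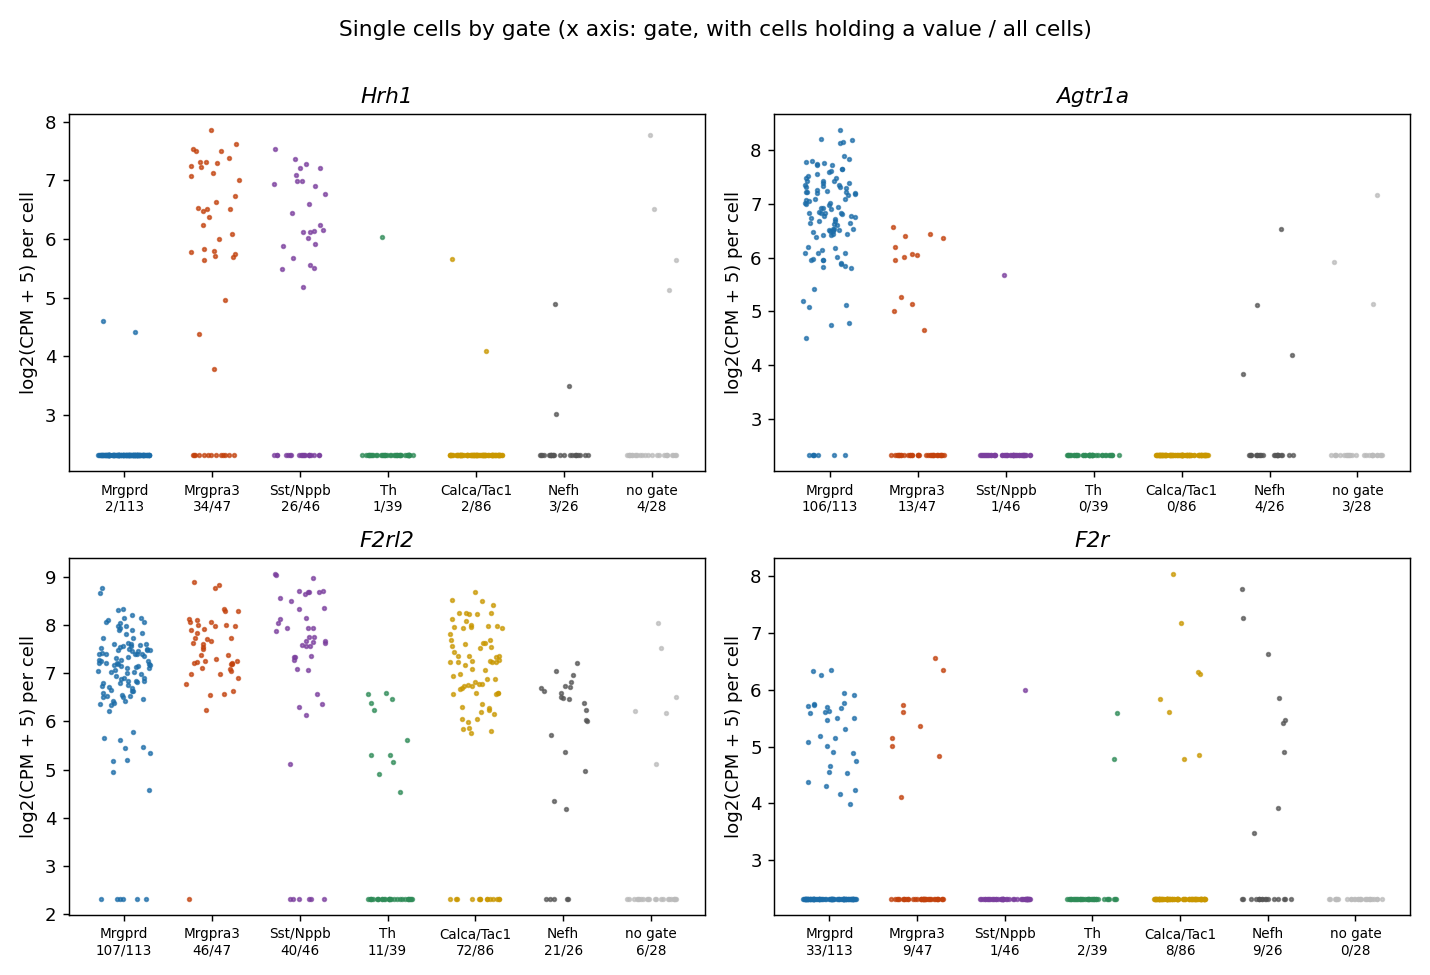
Single-cell values of Hrh1, Agtr1a, F2rl2 and F2r as log2(CPM + 5) (y axis) by gate (x axis), with the number of cells holding a value over all cells of the gate; points at the bottom are cells at 0. Hrh1 was present in 34 of 47 Mrgpra3-high and 26 of 46 Sst/Nppb-high cells, and Agtr1a in 93.8% of Mrgprd-high cells.

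Among Mrgpra3-high cells, the 34 with Hrh1 and the 13 without differed in the other receptors they held. F2rl1 was found in 1 of 34 cells with Hrh1 and 5 of 13 without, F2r in 3 of 34 and 6 of 13, and Agtr1a in 5 of 34 and 8 of 13. The heat channel gene Trpv1, which opens downstream of Hrh1 in sensory neurons, ran the other way, in 32 of 34 cells with Hrh1 and 5 of 13 without. Cells with Hrh1 were the deeper ones, with a median of 42463 counts against 29354. In Sst/Nppb-high cells Trpv1 was found in 25 of 26 cells with Hrh1 and 16 of 20 without, and F2rl1 in 8 of 26 and 1 of 20, with a median depth of 21715 against 14451 counts. These counts pool cells of several mice and carry no test.

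Hrh2 was found in 8 cells, with 9 counts in all, and each of them also held Hrh1; these are 11.3% of the 71 cells with Hrh1. Its mean was 3.48 CPM in Blue for Mrgpra3-high cells, and 2.18 CPM in Blue and 4.02 CPM in Red for Sst/Nppb-high cells. Control2 had 20.1 CPM in Mrgpra3-high and 33.6 CPM in Sst/Nppb-high cells, from gates of 3 cells each that share 1 cell. The 8 cells were 4 of 47 Mrgpra3-high and 5 of 46 Sst/Nppb-high cells with 1 cell in both, while no Mrgprd-high and 0 of 86 Calca/Tac1-high cells had a value, which allows shares of up to 2.65% and 3.49%; such a limit is 3 cells over the number examined, as for every count of 0 given here. Neither itch gate passed the test for Hrh2 (log2 difference 0.78, limma adjusted p = 0.402, n = 3, and 0.83, adjusted p = 0.223, n = 5). Of the 8 cells, 1 held a value that is a fraction of a count, which can occur where genes share reads.

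Of the 29 cells with Hrh3, 1 lay in the Mrgpra3 and Sst/Nppb gates. Th-high cells averaged 9.17 CPM in Blue and 6.91 CPM in Red, and their other cells averaged 3.30 ± 1.27 CPM (SD, n = 2). Calca/Tac1-high cells had 12.0, 5.45, 9.08 and 10.3 CPM in Blue, Red, Control and Control1 and none in Control2 and Control6. By cells, 10 of 39 Th-high (25.6%, 13.04% to 42.1%) and 11 of 86 Calca/Tac1-high cells (12.8%, 6.56% to 21.7%) had Hrh3, as did 3 of 26 Nefh-high cells (11.5%, 2.45% to 30.2%) and 4 of 28 cells in no gate (14.3%, 4.03% to 32.7%), against 0.885% of Mrgprd-high, 1 of 47 Mrgpra3-high and 0 of 46 Sst/Nppb-high cells. A cell with a value held a median of 1 count, and none was left after thinning to 5000 counts in the Th and Calca/Tac1 gates. Neither difference passed (log2 0.66, SE 0.38, limma adjusted p = 0.214, and 0.66, SE 0.33, adjusted p = 0.263). The Calca/Tac1 difference was 0.91 in run 1 (limma adjusted p = 0.0211) and 0.54 in runs 2 to 4 (0.653), and edgeR called the Th difference (2.31, adjusted p = 0.0242). Hrh1 and Hrh3 were found together in 1 cell.

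F2rl2 was the broadest of the protease-activated receptor genes. It averaged 197 ± 72.4 CPM in Sst/Nppb-high (SD, n = 5 mice), 196 ± 37.7 in Mrgpra3-high (n = 3), 136 ± 25.7 in Mrgprd-high (n = 6), 122.9 ± 27.2 in Calca/Tac1-high (n = 6) and 72.5 ± 18.5 in Nefh-high cells (n = 3). The ranges over mice of the first 4 gates ran from 87.97 to 258, from 174 to 240, from 99.7 to 175 and from 91.2 to 153 CPM; neighbours in this order overlapped, while the Mrgpra3 range lay wholly above the Calca/Tac1 range. Th-high cells stood apart, with 15.6 CPM in Blue and 14.1 CPM in Red, against 156 and 171 CPM in the other cells of these mice (log2 difference -3.09, SE 0.22, limma adjusted p = 1.0e-42, n = 2 mice). A value was found in 11 of 39 Th-high cells (28.2%, 15% to 44.9%), against 80.8% to 97.9% in the other 5 gates.

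At 5000 counts per cell, F2rl2 was left in 0 of 39 Th-high cells, in 24% of Nefh-high, 48.8% of Calca/Tac1-high, 53.2% of Mrgprd-high, 62.2% of Sst/Nppb-high and 67.4% of Mrgpra3-high cells. Its higher levels in the itch gates did not pass the test (Mrgpra3, log2 difference 0.51, SE 0.16, limma adjusted p = 0.158; Sst/Nppb, 0.64, SE 0.22, 0.0754), although F2rl2 was higher in 3 of 3 and 5 of 5 mice. Within run 1, which has only 2 mice, both passed (0.59, limma adjusted p = 2.3e-06, and 0.86, 3.6e-06), and runs 2 to 4 gave 0.49 for the Sst/Nppb gate (0.531). The Sst/Nppb difference also passed without Control (0.0459) or Control1 (0.0493), with edgeR (0.75, adjusted p = 7.4e-05) and with DESeq2 (0.74, 0.00712). Without cells in another gate, Th-high cells averaged 8.25 CPM.

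Iqgap2, the gene around F2rl2, had a value in 1 of 39 Th-high, 8 Mrgprd-high, 12 of 47 Mrgpra3-high and 10 of 46 Sst/Nppb-high cells. It also had one in 23 of 86 Calca/Tac1-high and 14 of 26 Nefh-high cells. Iqgap2 averaged 2.60 ± 2.02 CPM in Mrgprd-high cells, where F2rl2 was at 136 CPM (SD, n = 6 mice). Its mean was 26.7 ± 29.8 CPM in Sst/Nppb-high (n = 5), 16.9 ± 8.12 in Nefh-high (n = 3) and 13.4 ± 8.80 in Calca/Tac1-high cells (n = 6). Mrgpra3-high cells had 5.89 ± 3.20 (n = 3) and Th-high cells 0.652 ± 0.922 CPM (n = 2). Most like F2rl2 over the 25 mouse-by-gate samples were the clathrin adaptor gene Ap2a2 (r 0.89), the kinase gene Camk2a (0.86) and Crip2 (0.85). Camk2a averaged 955 CPM in Sst/Nppb-high and 668 CPM in Mrgpra3-high cells, against 17.4 CPM in Th-high cells.

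F2rl1 was sparse, with 34 counts in 17 cells. Of these cells, 15 (88.2%) lay in the Mrgpra3 and Sst/Nppb gates, as 6 of 47 Mrgpra3-high (12.8%, 4.83% to 25.7%) and 9 of 46 Sst/Nppb-high cells (19.6%, 9.36% to 33.9%). Thinned cells gave 4.35% and 11.1%. One cell each of the Mrgprd, Calca/Tac1 and Nefh gates held a value of 1 count, and 0 of 39 Th-high cells did, which allows up to 7.69%. Per mouse, Sst/Nppb-high cells had 18.2 CPM in Blue, 26.2 in Red and 0 in Control, Control1 and Control2, and Mrgpra3-high cells had 9.21 CPM in Red and 0 in Blue and Control2. The Sst/Nppb difference did not pass (log2 0.49, SE 0.53, limma adjusted p = 0.594, n = 5). In run 1 alone it was 2.17 (adjusted p = 3.5e-06), and in runs 2 to 4 it was -0.62, from gates of 3 or 4 cells per mouse.

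F2r was spread over several gates with 142 counts in 58 cells. Nefh-high cells had 22.1 CPM in Control, 71.4 in Control2 and 12.6 in Control6, against 0.658, 9.22 and 11.7 CPM in their other cells. The gate held 17 cells in Control but only 3 each in Control2 and Control6, and its highest cell had 214 CPM. A mean of so few cells can come from a single cell. F2r was higher in 3 of 3 mice and the groups did not overlap, but the difference did not pass (log2 1.59, SE 0.57, limma adjusted p = 0.0896). Without Control6, which leaves 2 mice, it was 2.34 (limma adjusted p = 0.00156), and edgeR on recovered counts gave 2.26 (0.00143). Mural cell markers summed to 13.5 CPM (6.37 to 23.1 over 3 mice, 6 of 6 above 0) in Nefh-high cells, against 133 CPM (62.1 to 189 over 6 mice, 5 of 6, Kcnj8 at 0) in the other cells. This sum is mostly Rgs5. Over all kept cells Rgs5 averaged 132.9 CPM and Pdgfrb 9.79 CPM, with Acta2, Myh11, Kcnj8 and Tagln each at most 0.651 CPM. Rgs5 was called lower in Mrgprd-high, Sst/Nppb-high, Calca/Tac1-high and Nefh-high cells and higher in Th-high cells, so the sum is no measure of mural RNA. Endothelial markers summed to 2.23 CPM (0 to 6.68, 5 of 5 above 0) against 0.524 CPM (0 to 0.976, 2 of 5, with Pecam1, Cldn5 and Flt1 at 0). Satellite glial markers, 7 of 7 above 0 on both sides, summed to 3190 CPM (887 to 5236) in Nefh-high cells, against 906 CPM (333 to 1363) in the other cells. Within the Nefh gate F2r was found in 7 of 21 Apoe-high and 2 of 5 Apoe-low cells, at 27.6 and 9.59 CPM averaged over cells, and the part of these markers in the F2r difference was not tested.

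Mrgprd-high cells held 33 of the 58 cells with F2r (56.9%), and 29.2% of them had a value (21.03% to 38.5%; 2.7% after thinning). Their mean per mouse ran from 0 in Control6 to 25.3 CPM in Control1, against 1.61 to 21.1 CPM in the other cells, so that the groups overlapped (log2 difference -0.16, SE 0.39, limma adjusted p = 0.823). Calca/Tac1-high cells averaged 12.7 ± 25.6 CPM (SD, n = 6), of which Control6 had 64.5 CPM from 4 cells and the other mice 0 to 9.53 CPM. Sst/Nppb-high cells had F2r in 1 of 46 cells (2.17%) and averaged 2.93 ± 6.56 CPM, against 12.2 ± 7.53 CPM in the other cells (log2 difference -1.25, SE 0.42, limma adjusted p = 0.0696, lower in 5 of 5 mice); without Control1, the 1 mouse with F2r there, it was -1.49 and passed (0.0349), as it did with edgeR (-3.18, 0.0121). Of the 58 cells with F2r, 39 also held Agtr1a (67.2%) and 55 held F2rl2 (94.8%), against 26.8% and 75.7% of the cells without F2r. Within Mrgprd-high cells the split was narrower: Agtr1a in 32 of 33 with F2r and 74 of 80 without, and F2rl2 in 33 of 33 and 74 of 80. Among Mrgpra3-high cells Agtr1a was found in 7 of 9 with F2r and 6 of 38 without, and F2rl2 in 9 of 9 and 37 of 38. These counts pool mice and carry no test.

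Bdkrb2 was found in 2 cells with 1 count each, a Mrgpra3-high cell of Red and a Nefh-high cell of Control. No value was seen in Mrgprd-high, 46 Sst/Nppb-high, 39 Th-high and 86 Calca/Tac1-high cells, which allows shares of up to 2.65%, 6.52%, 7.69% and 3.49%. The gene did not reach 2 CPM in any comparison and was not tested. At a median of 19874 counts per Calca/Tac1-high cell, the receptor was not detectable in these cells at this depth.

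Ednra was found in 16 cells with 21 counts. Per-mouse means reached 29.98 CPM in Control2 for the Mrgpra3 and the Sst/Nppb gate, both from the same cell with 1 count, and 8.59 CPM in Blue for Sst/Nppb-high cells. In the remaining neuron gates they were at most 4.59 CPM, and 0 of 39 Th-high cells had a value. The tested differences of Ednra did not pass (Mrgpra3, log2 0.76, limma adjusted p = 0.565; Sst/Nppb, 0.68, 0.366; Apoe, 0.18, 0.865).

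Ednrb followed the glial gene Apoe. Apoe encodes apolipoprotein E and is abundant in satellite glia, which wrap each sensory neuron and are known to express Ednrb. None of 208 cells with Apoe at 0 had Ednrb, which allows a share of up to 1.44%. The share was 10.3% of 39 cells with Apoe below 100 CPM, 33.3% of 42 cells from 100 to below 1000 CPM, 91.8% of 61 cells from 1000 to below 3000 CPM and 95.2% of 21 cells with at least 3000 CPM. The mean of Ednrb rose along these steps, with 0, 3.70, 26.04, 104.8 and 209.9 CPM. Median depth was 27943, 45677, 29326, 40929 and 16796 counts in the same order.

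**Figure D3:**
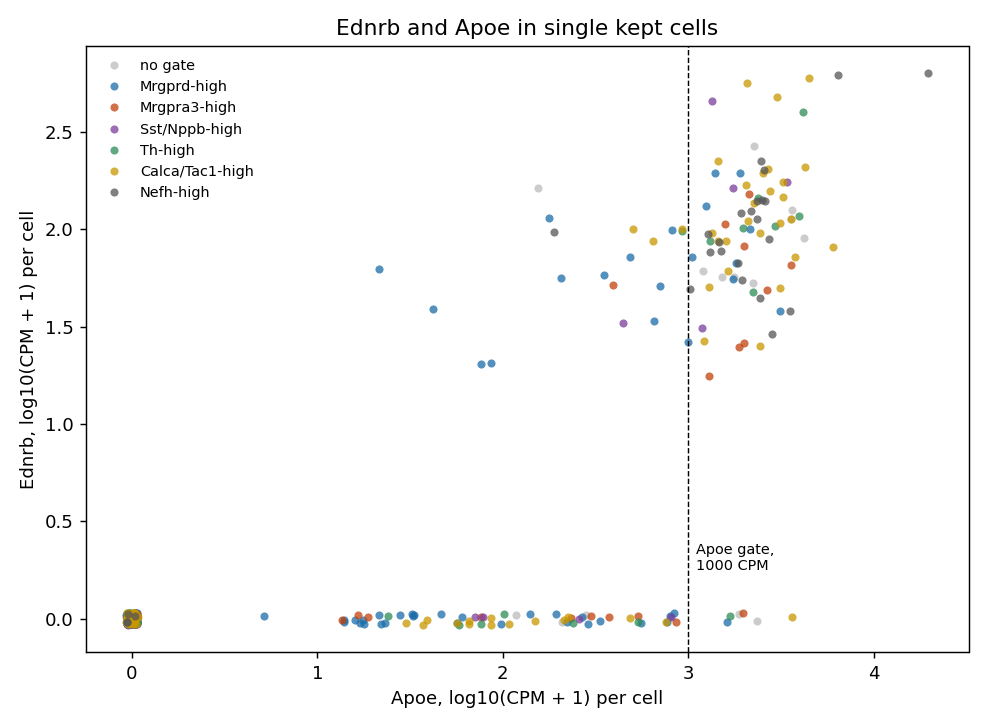
Ednrb (y axis) against Apoe (x axis) in the kept cells, both as log10(CPM + 1), coloured by neuron gate, with a small random shift of the cells at 0; the dashed line is the Apoe gate of 1000 CPM. Cells without Apoe are at 0 for Ednrb, and 76 of 82 cells right of the line have a value.

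The Apoe gate of at least 1000 CPM took 82 cells, 76 of which had Ednrb (92.7%, 84.8% to 97.3%; 41.98% after thinning). They were 80.9% of the 94 cells with Ednrb. Apoe-high cells averaged 136 CPM in Blue, 126.2 in Red, 138 in Control, 169.6 in Control2 and 83.5 in Control6, against 1.35, 2.54, 12.3, 22.6 and 9.58 CPM in their other cells. Ednrb was higher in 5 of 5 mice without overlap (log2 difference 3.38, SE 0.30, limma adjusted p = 0.000245, n = 5; 4.30 in run 1 and 2.77 in runs 2 to 4, both past the threshold). With no filter on low values the adjusted p was 0.0506. Of 7 members tested, 2 were called, where 3.56% of all genes were: Ednrb was the 1 called higher (2.36% of all genes) and Agtr1a the 1 called lower (1.2%).

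Satellite glial markers, 7 of 7 above 0 and Apoe among them, summed to 3680 CPM in Apoe-high cells (2942 to 4899 over mice), against 383 CPM (213 to 794) in the other cells. Apoe itself set this gate; the other 6 markers summed to 1184 CPM (999 to 1685) in Apoe-high cells, against 279.5 CPM (179.7 to 501) in the other cells. Schwann cell markers, 5 of 5 above 0, summed to 973 CPM (630 to 1875) against 685 CPM (539 to 764). Spearman's rho of Ednrb over the 371 cells was 0.82 with Sparc, 0.79 with Apoe and 0.78 with Fabp7, and -0.18 with Scn10a; cells of a mouse share their run, and no test was made. Most like Ednrb over the 25 mouse-by-gate samples were Abca8a, a lipid transporter gene (r 0.91), Qk, an RNA-binding protein gene of glia (0.88), and Apoe itself (0.88). Apoe-high cells kept their neuronal genes, and 27 of them passed the Calca/Tac1 gate, 21 the Nefh gate and 10 the Mrgprd gate.

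Within each neuron gate Ednrb was found in a larger share of the Apoe-high than of the Apoe-low cells. Among Nefh-high cells it was found in 21 of 21 Apoe-high against 1 of 5 Apoe-low cells, and among Calca/Tac1-high cells in 26 of 27 against 3 of 59. The same split was 9 of 10 against 10.7% in Mrgprd-high, 8 of 9 against 1 of 38 in Mrgpra3-high, 4 of 4 against 1 of 42 in Sst/Nppb-high and 7 of 8 against 1 of 31 in Th-high cells. Averaged over cells, Ednrb was at 151 CPM in Apoe-high and 20.2 CPM in Apoe-low cells of the Nefh gate, and at 159 and 4.81 CPM in the Calca/Tac1 gate.

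By gate, Ednrb averaged 111.6 ± 75.9 CPM in Nefh-high (SD, n = 3), 80.6 ± 99.8 in Calca/Tac1-high (n = 6), 28.8 ± 1.48 in Th-high (n = 2), 21.99 ± 21.4 in Sst/Nppb-high (n = 5), 14.04 ± 7.40 in Mrgprd-high (n = 6) and 11.7 ± 8.26 in Mrgpra3-high cells (n = 3). Neighbours in this order overlapped in their ranges over mice, which ran from 23.99 to 156 CPM in Nefh-high and from 0 to 272 CPM in Calca/Tac1-high cells. The Nefh range lay wholly above that of Mrgpra3-high cells (2.17 to 16.5 CPM), and the Th range (27.8 to 29.9 CPM) above those of Mrgpra3-high and Mrgprd-high cells (4.81 to 24.3 CPM). Over all mice no neuron gate passed the test for Ednrb at an adjusted p under 0.05: the Nefh difference was 1.11 (SE 0.41, limma adjusted p = 0.10) and the Mrgpra3 difference -1.58 (SE 0.39, adjusted p = 0.0898). Of the 26 Nefh-high cells 21 were Apoe-high (80.8%, and 25.6% of Apoe-high cells), against 8.85% of Mrgprd-high cells. Run 1 alone gave -1.26 (Mrgprd), -1.31 (Mrgpra3) and 1.20 (Calca/Tac1), all past the threshold, and runs 2 to 4 gave -0.99 and 0.52 for Mrgprd and Calca/Tac1, not past it. Leaving out 1 mouse made a call for Nefh (1.83 without Control6, limma adjusted p = 1.1e-05) and Mrgprd (-1.57 without Control1, 0.00328). For Mrgpra3 the fit without Control2 is the run 1 fit itself (-1.31, limma adjusted p = 3.5e-05). It and the Nefh fit without Control6 rest on 2 mice each. edgeR on recovered counts called Nefh (1.501), Calca/Tac1 (1.12), Mrgprd (-1.30) and Mrgpra3 (-1.34), and DESeq2 called Calca/Tac1 (1.18) and Mrgprd (-1.29). Among Apoe-low cells the Ednrb difference was -0.08 for Mrgprd-high, -0.50 for Mrgpra3-high, -0.30 for Sst/Nppb-high, 0.20 for Th-high and 0.59 for Calca/Tac1-high cells, none past the threshold; Nefh-high cells were too few for that fit.

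Agtr1a was a gene of the Mrgprd gate. Mrgprd-high cells of the 6 mice averaged 115.4 (Blue), 115.8 (Red), 96.2 (Control), 152 (Control1), 142 (Control2) and 110.2 CPM (Control6), against 2.65, 3.59, 0.703, 14.4, 9.88 and 0 CPM in the other cells. All 6 mice were higher without overlap (log2 difference 3.80, SE 0.23, limma adjusted p = 2.7e-08), and the difference was 3.90 in run 1 and 3.75 in runs 2 to 4, both past the threshold. The gene was found in 93.8% of Mrgprd-high cells (87.7% to 97.5%; 45.9% after thinning), which were 86.2% of all cells with it. A Mrgprd-high cell with a value held a median of 5.5 counts. Fam167a (r 0.99) and Otoa (0.98) were most like it across mouse-by-gate samples, followed by Mrgprd, whose level defines the gate. Otoa averaged 58.02 CPM in Mrgprd-high and 10.8 CPM in Mrgpra3-high cells, against at most 3.53 CPM in the other gates.

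Outside that gate, Mrgpra3-high cells held Agtr1a at 13.4 CPM in Blue, 17.7 in Red and 0 in Control2, in 13 of 47 cells (27.7%, 15.6% to 42.6%; 2.17% after thinning). No Agtr1a was found in 39 Th-high cells and 86 Calca/Tac1-high cells, which allows up to 7.69% and 3.49% of cells, and 1 of 46 Sst/Nppb-high cells held 1 count. Lower levels passed the test in Calca/Tac1-high cells (log2 difference -3.60, SE 0.37, limma adjusted p = 9.1e-06, 6 of 6 mice), in Sst/Nppb-high cells (-3.37, SE 0.47, adjusted p = 0.00042, 5 of 5), in Th-high cells (-3.09, SE 0.37, adjusted p = 2.5e-15, 2 of 2) and in Nefh-high cells (-3.18, SE 0.55, adjusted p = 7.8e-05, 3 of 3; 0.12 with no filter on low values). In gates at 0 these values are set by the pseudocount and are no measure of a fold. The Mrgpra3 difference of -1.97 (SE 0.62) did not pass (limma adjusted p = 0.16) and passed without any 1 of the 3 mice, where it ran from -2.51 to -0.998. Each of these leave-one-out fits rests on 2 mice.

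The other cells of each of these comparisons contain the Mrgprd-high ones, so that every gate that lacks Agtr1a lies below them. Apoe-high cells averaged 13.5 ± 6.79 CPM of Agtr1a against 56.9 ± 24.1 CPM in their other cells (log2 difference -1.74, SE 0.32, limma adjusted p = 0.013, 5 of 5 mice); the adjusted p was 0.0525 without Control, 0.0605 without Control2 and 0.154 with no filter. Within the Mrgprd gate, Agtr1a was found in 9 of 10 Apoe-high and 94.2% of Apoe-low cells, at 107.4 and 117.5 CPM averaged over cells.

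**Figure D4:**
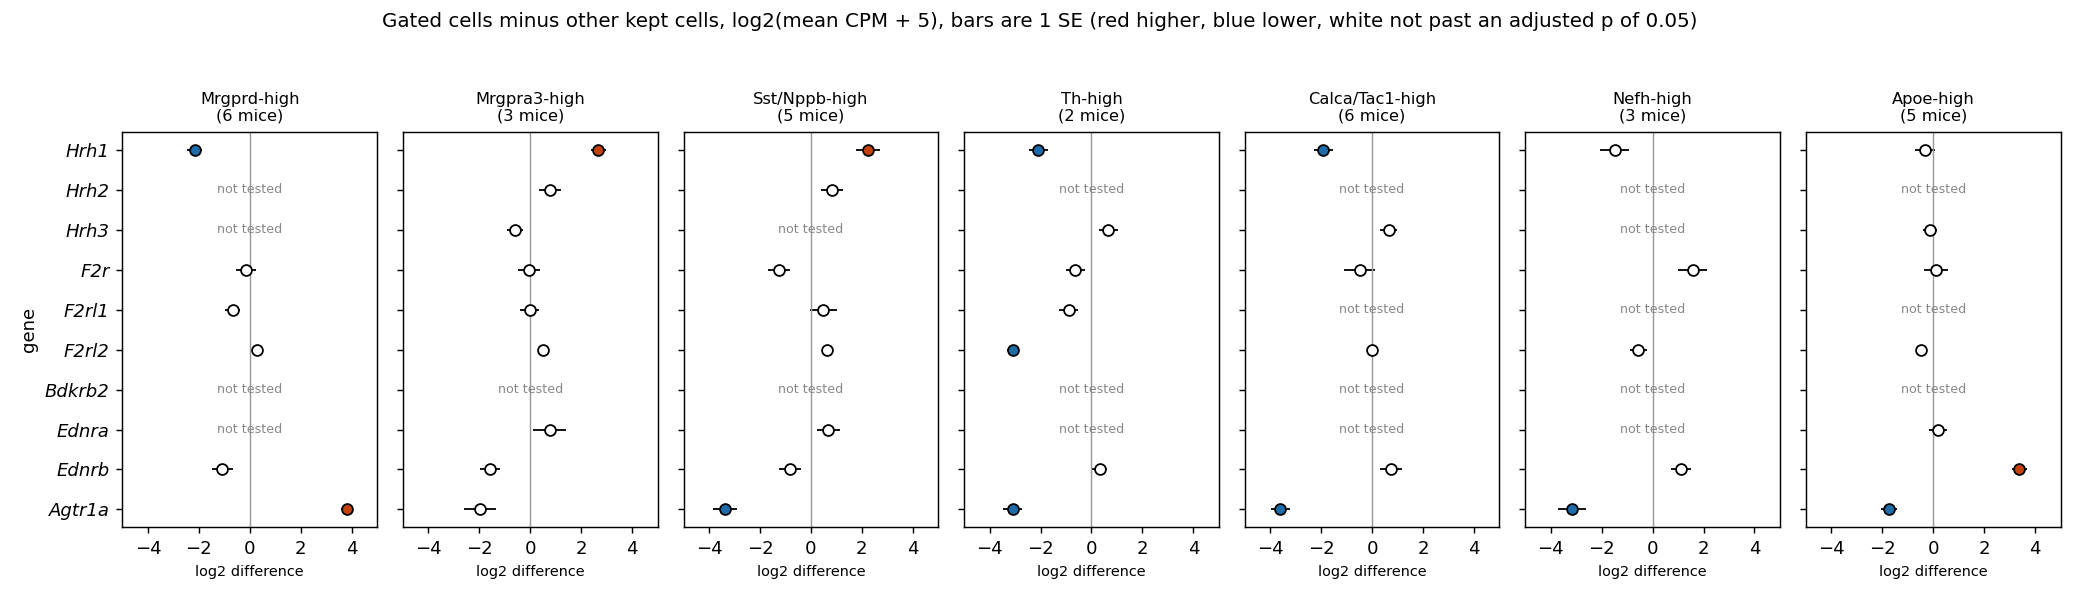
Log2 differences of mean CPM + 5 between gated cells and the other kept cells of the same mice (x axis) for each receptor gene (y axis), with bars of 1 SE and 1 panel per gate; red is higher and blue lower at a limma adjusted p under 0.05, white is not past it. Agtr1a is red in the Mrgprd panel (3.80), Hrh1 in the Mrgpra3 (2.67) and Sst/Nppb (2.25) panels and Ednrb in the Apoe panel (3.38).

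Against the background of all genes, the counts of called receptor genes were as follows. Mrgprd-high cells had 1 of 6 tested receptor genes higher (Agtr1a) and 1 lower (Hrh1), where 21% of 12033 genes were called, 7.79% higher and 13.2% lower. Mrgpra3-high cells had 1 of 9 higher and none lower, where 3.36% of 11893 genes were called, 1.09% higher and 2.27% lower; without Control2 the share called was 23.98%. In Sst/Nppb-high cells 1 of 8 was higher and 1 lower, where 12.2% of 11996 genes were called, 2.56% higher and 9.61% lower, and the median of all genes tested was itself shifted by -0.27 there (-0.12 with edgeR, -0.11 with DESeq2). Th-high cells had 3 of 7 lower (Hrh1, F2rl2 and Agtr1a), where 25.3% of 11954 genes were called, 11.8% higher and 13.5% lower. Calca/Tac1-high cells had 2 of 6 lower (Hrh1 and Agtr1a), where 10.2% of 12150 genes were called, 4.09% higher and 6.07% lower. Nefh-high cells had 1 of 5 lower (Agtr1a), where 7.15% of 12309 genes were called, 3.35% higher and 3.8% lower. With so few receptor genes tested, a share above these values is a description.

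Of 9 other receptors of the same ligands, Hrh4 and Agtr2 were listed at 0 in all 7 comparisons, and at most 3 passed the filter on low values in any comparison. Agtr1b is the other mouse AT1 gene; it and Agtr1a are close copies, so that reads of one can be lost or counted for the other, and 0.813% of the low Agtr1a values were fractions of a count. It was lower in Mrgprd-high cells, at 0.0785 ± 0.192 CPM against 7.23 ± 3.92 CPM (log2 difference -1.20, SE 0.26, limma adjusted p = 0.00316, lower in 6 of 6 mice), and averaged 30.005 CPM in Mrgpra3-high against 2.12 CPM in the other cells (2.08, adjusted p = 0.0691). In Th-high cells Agtr1b was lower (-1.39, SE 0.38, limma adjusted p = 0.00165, 2 of 2 mice), as Agtr1a was. Thbd, thrombomodulin, which binds thrombin and keeps it from other substrates, was higher in Calca/Tac1-high cells at 65.9 ± 39.2 CPM against 9.67 ± 5.68 CPM (2.13, SE 0.36, limma adjusted p = 0.000892, 6 of 6 mice). It was lower in Mrgprd-high cells, at 1.31 ± 1.22 CPM against 32.02 ± 19.8 CPM (-2.39, SE 0.29, adjusted p = 2.3e-05), and in Th-high cells (-2.94, SE 0.35).

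Of 27 genes for ligands and the enzymes that make or break them, 5 to 7 were tested per comparison. Mrgprd-high cells had higher Ece1, the endothelin-converting enzyme, at 91.3 ± 24.1 CPM against 47.6 ± 27.03 CPM (log2 difference 1.04, SE 0.22, limma adjusted p = 0.00264, 6 of 6 mice), and higher Cpe, a carboxypeptidase of peptide processing (1.42, SE 0.09, 2.3e-08). Angiotensinogen (Agt), the angiotensin precursor, was lower there, at 0.181 ± 0.281 CPM against 11.1 ± 5.49 CPM (-1.56, SE 0.26, limma adjusted p = 0.000478). Hnmt, which inactivates histamine, was at 0 in Sst/Nppb-high cells of 5 mice, against 6.29 ± 2.87 CPM in the other cells (-1.14, SE 0.31, limma adjusted p = 0.0289).

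Of 21 Gq and phospholipase C genes 16 were tested in each comparison. In Mrgprd-high cells 8 were higher and 3 lower, with a median log2 difference of 0.33 against -0.08 over all genes tested. The shares of all genes called there were 7.79% higher and 13.2% lower. Among the higher list genes Gnaq, the Gq subunit gene, was at 1278 ± 75.7 CPM against 529 ± 142 CPM (log2 difference 1.31, SE 0.11, limma adjusted p = 5.8e-07, 6 of 6 mice), Plcb3, the phospholipase gene used by Hrh1 in itch neurons, at 301 ± 70.4 against 173 ± 63.3 CPM (0.81, SE 0.14, 0.000426), and Prkcq, a protein kinase C gene, at 257 ± 30.3 against 8.50 ± 10.7 CPM (4.62, SE 0.31, 7.1e-08). Lower were Prkcb (-3.99), Plcb1 (-1.86) and Itpr1 (-0.83).

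In Th-high cells 2 were higher (Plcb1 and Plcb4) and 10 lower, with a median of -0.78 against -0.01 over all genes. There, 11.8% of all genes were called higher and 13.5% lower. Plcb3 stood at 12.8 ± 2.06 CPM against 211 ± 13.5 CPM in Th-high and other cells (-3.61, SE 0.21), Gna14 at 2.71 ± 3.83 against 236 ± 7.49 CPM (-5.06, SE 0.26) and Prkca at 21.8 ± 4.19 against 631 ± 24.2 CPM (-4.58, SE 0.16), each lower in 2 of 2 mice. Calca/Tac1-high cells had 1 higher and 7 lower, Nefh-high cells 2 and 7, and Sst/Nppb-high cells 3 (Gna14, Prkca and Prkcd) and 4. The shares of all genes called in these gates were 10.2%, 7.15% and 12.2%. Apoe-high cells had 3 higher (Plcb1, Itpr3 and Prkcb) and 7 lower, Gnaq and Plcb3 among them, where 3.56% of all genes were called. Mrgpra3-high cells had 2 lower, Prkcb and Prkcq, and the other 14 did not pass, where 3.36% of all genes were called. Plcb3 was found in 71 of 71 cells with Hrh1 and in 233 of 300 cells without. Within the itch gates the split was narrower. Among Mrgpra3-high cells Plcb3 was found in 34 of 34 with Hrh1 and 13 of 13 without. The same counts were 26 of 26 and 18 of 20 among Sst/Nppb-high cells. They pool mice and carry no test.

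Of 18 receptor regulators 16 were found and tested. They held 5 higher and 5 lower genes in Mrgprd-high cells and 1 higher and 6 lower in Sst/Nppb-high cells. The shares of all genes called in these 2 gates were 21% and 12.2%. Rgs4, which shortens Gq and Gi signals, was higher in Mrgpra3-high cells, at 3395 ± 475 CPM against 1458 ± 74.6 CPM (log2 difference 1.21, SE 0.12, limma adjusted p = 0.00669, 3 of 3 mice), and lower in Sst/Nppb-high cells, at 527 ± 116.7 against 1958 ± 373 CPM (-1.89, SE 0.16, adjusted p = 7.8e-06, 5 of 5). Rgs2, a regulator selective for Gq, was higher in Mrgpra3-high cells, at 59.6 ± 9.23 against 10.8 ± 6.42 CPM (2.09, SE 0.31, adjusted p = 0.0231), and lower in Mrgprd-high cells, at 0.836 ± 1.298 against 24.6 ± 12.7 CPM (-2.25, SE 0.26, adjusted p = 1.5e-05). Agtrap, which encodes a protein that binds the AT1 receptor and promotes its uptake, was lower in Mrgprd-high cells, at 36 ± 7.92 against 61.5 ± 20.2 CPM (-0.66, SE 0.21, limma adjusted p = 0.0368, lower in 5 of 6 mice), and higher in Sst/Nppb-high cells, at 151 ± 24.99 against 36.8 ± 7.89 CPM (1.91, SE 0.26, adjusted p = 0.000404), opposite to Agtr1a in both. In Th-high cells it was lower, as Agtr1a was (-2.66, SE 0.32, limma adjusted p = 3.9e-15, 2 of 2 mice).

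Of the 15 effector channel genes, 12 or 13 were tested per comparison. Trpv1 was lower in Mrgprd-high cells, at 15.7 ± 6.76 CPM against 206 ± 88.6 CPM (log2 difference -3.30, SE 0.23, limma adjusted p = 1.2e-07, 6 of 6 mice), and higher in Calca/Tac1-high cells, at 403 ± 107.6 against 79.7 ± 43.9 CPM (2.42, SE 0.26, adjusted p = 1.6e-05). Trpa1, the irritant channel gene, was higher in Mrgprd-high cells (1.80, SE 0.29) and lower in Sst/Nppb-high cells (-1.68, SE 0.39). Scn11a was the 1 channel gene higher in Mrgpra3-high cells (0.71, SE 0.13, limma adjusted p = 0.0375). In Sst/Nppb-high cells 6 of 12 channel genes were lower, with a median of -1.44 against -0.27 over all genes. Of all genes 9.61% were called lower there, and these cells were the least deeply sampled gate.

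Of 17 other vascular and inflammatory peptide receptor genes, 3 to 5 were tested per comparison. The vasopressin receptor gene Avpr1a was higher in Calca/Tac1-high cells, at 22.6 ± 18.5 CPM against 0.134 ± 0.328 CPM (log2 difference 1.92, SE 0.49, limma adjusted p = 0.018, higher in 4 of 6 mice), and was listed at 0 in Mrgprd-high cells of all 6 mice, against 7.83 ± 6.83 CPM (-1.17, SE 0.30, adjusted p = 0.012). Npr2, the receptor gene of C-type natriuretic peptide, was lower in Sst/Nppb-high cells, at 48.1 ± 28.1 against 100.4 ± 20.7 CPM (-1.12, SE 0.34, limma adjusted p = 0.0488).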

How the data were processed

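The deposited tables hold 1 value per gene and cell, a signal whose low values were mostly whole multiples of 1 step per cell (a median of 96.5% of them, within 0.1 of a step), as counts times a factor would be, and no source used here gives that factor; per the submitters' processing notes STAR 2.7.3a and mm10 were used. The labels list 400 cells, 394 had a column, and the other 6 were not analysed here. Whole reads were recovered in 252 columns and not claimed in 142; recovered counts gave depths, thinned shares (5000 counts) and the edgeR and DESeq2 alternatives. Date-like entries (26, with 0.154% of the signal) and Rn45s (7.10% on average) were left out before scaling to CPM.

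Mice were the replicates. Mean CPM per mouse and side were tested with limma 3.58.1 (R 4.3.3; trended prior, mouse as a block), and edgeR 4.0.16 and DESeq2 1.42.0 were alternatives. Both sides of a comparison come from the same mice, which is where the pairing comes from. P-values are conditional on the gates. The spread they use joins that of a gene between mice with the trend over all genes. Residual and prior degrees of freedom were 5 and 9.43 for Mrgprd, 2 and 4.58 for Mrgpra3, 4 and 8.92 for Sst/Nppb and 5 and 9.94 for Calca/Tac1. They were 4 and 7.96 for Apoe, 2 and 34.8 for Nefh, and 1 and infinite for Th. The prior was the larger part in every comparison, so all these p-values rest mostly on that trend. Those of Nefh do so the most after Th, whose p-values rest on it wholly. The members, gates, gene lists and alternatives were chosen with earlier results of these data known. Named genes are the 10 members, the 3 genes most like each member whose mean reached 10 CPM, and list genes. The fits were tested on simulated data.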

Additional observations from a re-analysis of the deposited data

Results flagged for a closer look

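Per-mouse means were searched for a mouse that stands apart from the rest of its gate by Dixon's criterion in 43 groups of 5 or 6 mice, and 14 were marked; chance marks about 1 in 20 groups, and genes with a few counts in 1 mouse and 0 in the others are marked by construction. In Control2, Hrh2 was at 33.6 CPM in Sst/Nppb-high cells and 4.38 CPM over all kept cells, Ednra at 29.98 CPM in Sst/Nppb-high cells and Hrh3 at 3.87 CPM in Mrgprd-high cells. In Control6, F2r was at 64.5 CPM in Calca/Tac1-high cells, against 0 to 9.53 CPM in the other mice, and Hrh2 at 4.51 CPM in Apoe-high cells. Control1 had 14.7 CPM of F2r in Sst/Nppb-high cells, and Control 0.602 CPM of Bdkrb2 in Apoe-high cells. Blue stood apart with 1.74 CPM of Hrh1 and 1.60 CPM of F2rl1 in Calca/Tac1-high cells, 0.648 CPM of Ednra in Mrgprd-high cells and 2.55 CPM of Agtr1a in Sst/Nppb-high cells. Red had 0.547 CPM of F2rl1 in Mrgprd-high and 2.25 CPM in Apoe-high cells.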

How the results depend on the processing

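Of 655 alternative values of the member differences, 570 kept direction and side of the threshold, 9 lost the call, 47 gained it and 29 turned round. The mouse block changed no member's call; without this replicate block 18.7%, 5.78%, 13.02%, 19.2%, 10.6%, 4.63% and 4.25% of tested genes were called for the Mrgprd, Mrgpra3, Sst/Nppb, Th, Calca/Tac1, Nefh and Apoe gates, against 21%, 3.36%, 12.2%, 25.3%, 10.2%, 7.15% and 3.56% with it. The causes of the changes below were not tested.

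Run 1 alone gave 35.5% (Mrgprd), 23.98% (Mrgpra3), 24.3% (Sst/Nppb) and 27.4% (Calca/Tac1), and runs 2 to 4 gave 11.7% (Mrgprd), 2.96% (Sst/Nppb) and 4.37% (Calca/Tac1). Apoe-low cells gave 11.7% (Mrgprd), 1.29% (Mrgpra3) and 5.64% (Sst/Nppb). With no filter, which also tests more genes, 0.614% (Mrgpra3), 0.241% (Nefh) and 0.0169% (Apoe) were called. Gated cells in no other gate gave 21.5% for Mrgpra3, and doubled thresholds 5.94% for Calca/Tac1. edgeR called 19.5% (Mrgpra3), 22.99% (Sst/Nppb), 20.2% (Calca/Tac1), 14.1% (Nefh) and 7.69% (Apoe), and DESeq2 6.25% (Mrgpra3), 7.96% (Th) and 5.68% (Apoe). Leave-one-out shares ran from 16.1% to 21.7% (Mrgprd), 3.12% to 23.98% (Mrgpra3, the highest without Control2), 7.48% to 11.1% (Sst/Nppb), 6.87% to 9.05% (Calca/Tac1), 3.85% to 8.44% (Nefh, the lowest without Control2) and 1.48% to 2.71% (Apoe, the lowest without Control2). Of the genes called, 21.03% were higher for Sst/Nppb, against 34.2% with edgeR and 39.6% with DESeq2; DESeq2 gave 42.8% for Mrgpra3 (32.5% with limma), 50.6% for Calca/Tac1 (40.2%) and 58.3% for Nefh (46.8%).

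No called difference turned round. Those that did were F2r for Mrgprd (0.77 in run 1, 0.076 in Apoe-low cells, leave-one-out from -0.45 to 0.28), Mrgpra3 (0.11 with a pseudocount of 1 CPM, 0.35 in run 1, 0.035 in no other gate, 0.20 in Apoe-low cells, 0.094 with edgeR, 0.063 with DESeq2, leave-one-out from -0.49 to 0.35), Calca/Tac1 (0.030 in run 1, 0.13 in Apoe-low cells) and Apoe (-0.029 with a pseudocount of 1 CPM, -0.15 in run 1, leave-one-out from -0.30 to 0.68). F2rl1 turned for Mrgpra3 (1.29 with edgeR, 0.80 with DESeq2, leave-one-out from -0.026 to 0.36) and Sst/Nppb (-0.62 in runs 2 to 4), F2rl2 for Calca/Tac1 (0.013 in runs 2 to 4, 0.15 in no other gate, 0.044 with doubled thresholds, 0.033 with DESeq2, leave-one-out from -0.072 to 0.057), and, for Apoe, Hrh3 (0.12 with doubled thresholds) and Hrh1 (leave-one-out from -0.74 to 0.044). Not run, for want of mice or cells or because the gate defines them, were runs 2 to 4 for Mrgpra3, each run split and leave-one-out for Th, each run split, no other gate, doubled thresholds and Apoe-low cells for Nefh, and no other gate and Apoe-low cells for Apoe. Depth limits Hrh2, Hrh3, Ednra and Bdkrb2, whose cells held a median of 1 count.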
